A study of Mus musculus with 41 samples.

Results

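Of the 33975 MLL3/4 peaks that cultured mouse keratinocytes carried without doxycycline (DOX), 3750 (11.0%) were met again in all 3 cultures that had been given DOX, and these kept sites are described here. They were chosen by measured peak positions: a kept site is a no-DOX MLL3/4 peak overlapped by at least 1 bp by an MLL3/4 peak of the WT-SOX9, the dTA-SOX9 and the dHMG-SOX9 culture, and by no MYC-tag peak of the WT-SOX9 culture. The peaks on mitochondrial DNA were left out. All coordinates are mm10.

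The study followed chromatin in epidermal stem cells (EpdSCs) that were made to express SOX9, by CUT&RUN, in which a nuclease tethered by an antibody cuts out the DNA around a bound protein. Keratinocytes from the back skin of newborn male CD1 mice were cultured with rtTA under the Krt14 promoter (K14rtTA), which works in basal epidermal cells, and with a DOX-dependent, MYC-tagged Sox9 gene brought in by lentivirus and drug selection. The gene was TRE-myc-Sox9 (WT-SOX9), TRE-myc-Sox9noTA, which has no transactivation domain (dTA-SOX9), or TRE-myc-Sox9noHMG, which lacks the DNA-binding HMG domain (dHMG-SOX9). All 3 were given DOX at 1 µg/ml, and the no-DOX culture carried WT-SOX9 without DOX, so every cultured group held rtTA and a transgene. In skin, male CD1 mice with K14rtTA and TRE-myc-Sox9 received DOX from postnatal day 21. EpdSCs were sorted at day 21 (D0), before DOX, and at days 28 (W1), 35 (W2) and 63 (W6), and at W12 from skin grafted onto immunocompromised hosts. Each group had 2 libraries, which per the methods the authors pooled before calling peaks, so no comparison between groups has a replicate check. A no-DOX list of replicate 1 alone met 3741 of the kept sites (99.8%), but 13119 pooled no-DOX peaks (38.6%) had exactly the borders of a replicate 1 peak, so it is not an independent list, and how the pooled no-DOX list, which defines the kept sites, was made could not be settled from the files. Intervals below are 95% intervals over sites (Wilson for a share, Newcombe for a difference of shares), they cover counting error only, and neighbouring sites are not independent.

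MLL3 and MLL4 are histone methyltransferases that place the single methyl mark of histone H3 found at enhancers, and they act at enhancers and some promoters that are in use in a cell. Transcription factors bring them to DNA. In epidermis, TP63, the AP-1 dimers of FOS and JUN proteins, the grainyhead-like (GRHL) factors, and TEAD factors, the DNA-binding partners of YAP and TAZ, are known regulators of keratinocyte genes. SOX9 is a pioneer factor of hair follicle stem cells, able to bind closed chromatin.

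Below is the DNA of 7 of these sites, 50 bases on either side of the point of strongest signal in the peak, read on the plus strand of GRCm38.p6, the assembly that mm10 stands for. The capitals mark short sequence words of transcription factors found by a text search on both strands (a match on the minus strand appears as its reverse complement). The AP1 word was TGANTCA, with any base at the position written N. The word of the GRHL factors was AACNGGTT. The word searched for TEAD factors was ACATTCC. For GATA factors, which bind in many epithelia, it was AGATAA. The GC box, a common element of promoters, was searched as GGGCGG. For the promoter factor NFY the letters were CCAATCA. The first 5 show the AP1, GRHL and TEAD words that the comparison of sequences below turns on, and the last 2 are promoters with words common there. They lie in an intron of Frmd4b (chr6:97293805-97293905), between genes near Atp11b (chr3:35720880-35720980), in an intron of Trp63 (chr16:25780167-25780267), and at the promoters of Syt8 (chr7:142434242-142434342), Mrps18b (chr17:35915491-35915591), Jun (chr4:95052301-95052401) and Ubald2 (chr11:116433827-116433927).
Frmd4b: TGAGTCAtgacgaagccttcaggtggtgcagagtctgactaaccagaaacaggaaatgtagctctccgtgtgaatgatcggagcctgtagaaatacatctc
Atp11b: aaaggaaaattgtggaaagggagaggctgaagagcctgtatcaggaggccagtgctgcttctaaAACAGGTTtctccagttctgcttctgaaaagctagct
Trp63: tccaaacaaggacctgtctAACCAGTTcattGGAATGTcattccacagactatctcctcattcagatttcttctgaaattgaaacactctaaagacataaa
Syt8: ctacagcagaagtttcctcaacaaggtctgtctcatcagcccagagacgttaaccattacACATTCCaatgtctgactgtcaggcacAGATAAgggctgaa
Mrps18b: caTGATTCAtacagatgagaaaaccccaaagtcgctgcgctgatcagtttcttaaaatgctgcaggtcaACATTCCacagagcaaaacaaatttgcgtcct
Jun: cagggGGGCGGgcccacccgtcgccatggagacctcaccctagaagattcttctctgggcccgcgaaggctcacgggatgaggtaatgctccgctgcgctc
Ubald2: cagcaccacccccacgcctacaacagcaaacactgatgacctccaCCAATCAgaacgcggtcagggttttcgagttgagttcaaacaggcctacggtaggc

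Of the 3 DOX lists, that of WT-SOX9 shared the fewest sites with the no-DOX list. Of all no-DOX peaks, 56.5% had a peak with dHMG-SOX9 and 55.7% with dTA-SOX9, but 18.0% with WT-SOX9, and 14.0% had one in all 3. The last share held 4773 peaks, of which 1023 lay on a MYC-tag peak of WT-SOX9 and were set aside. A further 9595 peaks without WT-SOX9 MYC-tag signal were present with dTA-SOX9 and dHMG-SOX9 and missing only with WT-SOX9, and 9930 were missing in all 3 DOX lists. The lists differed in length, with 10543 peaks for WT-SOX9, 25948 for dTA-SOX9 and 23301 for dHMG-SOX9. With each list, that without DOX included, limited to its 10543 strongest peaks, 2507 sites were kept, 23.8% of the no-DOX list so limited.

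The kept sites were strong peaks before induction. Their median total signal in the no-DOX list, the coverage summed over the bases of a peak, was 5634 and their median maximum coverage was 32, against 1746 and 13 for all no-DOX peaks. Their median width was 431 bp and that of all no-DOX peaks 296 bp. Of the kept sites, 94.9% lay in the upper 50% of the list and 46.7% in its strongest 10%. The share of no-DOX peaks that were kept climbed from 17 of 3398 in the weakest decile of the list to 51.6% (1753 of 3397) in the strongest. Total signal thus moved with the selection, and most differences below are also given within deciles of total signal, 10 equal groups of the no-DOX list. The strongest decile spans totals of 5962 to 877727, so sets can still differ in signal within it. Width was not matched, with a median of 334 bp in sites missing only with WT-SOX9.

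Within the WT-SOX9 list the kept sites lay near the middle by total signal. Peaks on kept sites made up 36.0% of that list, 16.8% of the dHMG-SOX9, 15.1% of the dTA-SOX9 and 11.0% of the no-DOX list, and a larger part of a list draws their median percentile towards 50, so percentiles are not compared between lists. Their median percentile by total signal was 88.9 in the no-DOX list, 84.1 with dHMG-SOX9, 80.8 with dTA-SOX9 and 47.7 with WT-SOX9. Mean coverage over the bases of the peaks on kept sites was 14.7 against 7.61 in the rest of the no-DOX list, 11.2 against 6.84 with dHMG-SOX9, 9.93 against 6.82 with dTA-SOX9, and 4.63 against 5.23 with WT-SOX9. Peaks on kept sites held 31.7% of the total signal of the WT-SOX9 list. A common scale of coverage between lists is not known, so these values, and the signals of single sites below, are read within a list. Over the 3750 sites Spearman's rho of total signal was 0.762 between the no-DOX and dHMG-SOX9 lists, 0.698 between no DOX and dTA-SOX9, and 0.393 between no DOX and WT-SOX9, a description over sites that share libraries and width.

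**Figure D1:**
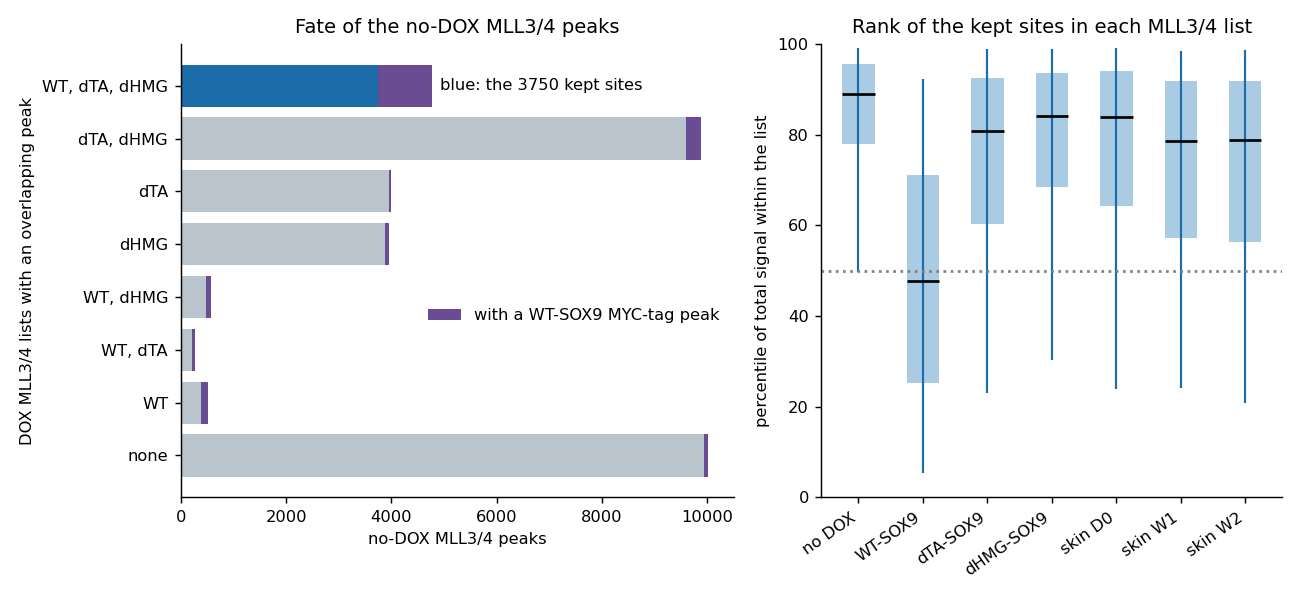
Left, number of no-DOX MLL3/4 peaks (x axis) by the DOX lists that hold an overlapping peak (y axis); the blue bar is the 3750 kept sites and purple marks peaks with a WT-SOX9 MYC-tag peak. Right, percentile of the kept sites by total signal within each MLL3/4 list (line, 5th to 95th percentile of sites; box, middle 50%; black bar, median); the median is 47.7 with WT-SOX9, where kept sites are 36.0% of the list, and between 78.6 and 88.9 in the other lists, where the skin lists count only the sites found in them.

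**Figure D2:**
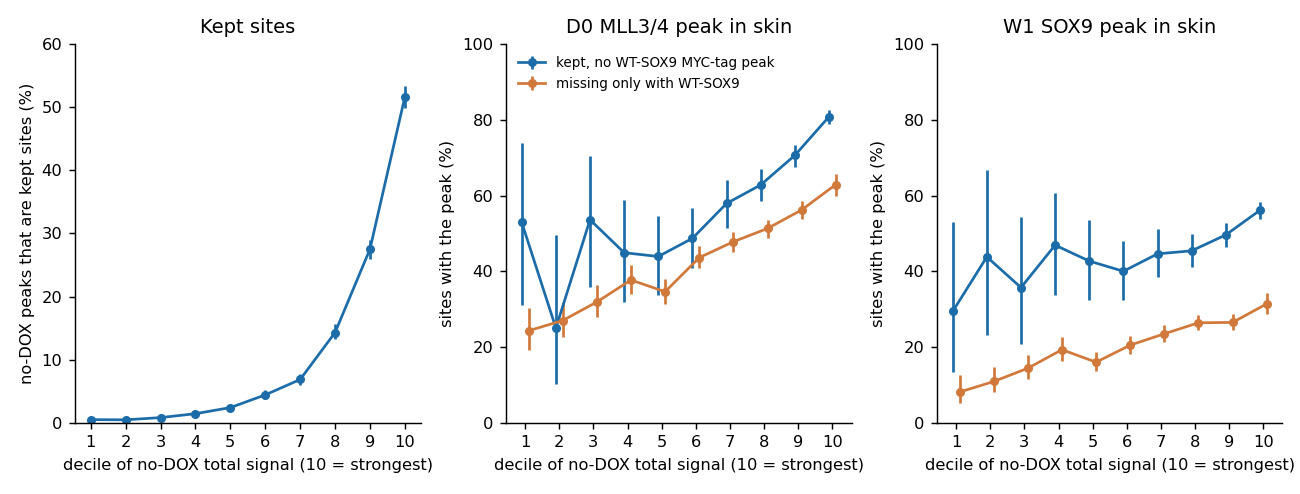
Left, share of no-DOX peaks that are kept sites by decile of total signal (10 is the strongest), with 95% Wilson intervals; it reaches 51.6% in the strongest decile. Middle and right, share of kept sites (blue) and of sites missing only with WT-SOX9 (orange) with a D0 MLL3/4 peak and with a W1 SOX9 peak in skin; blue lies above orange in every decile of the right panel and in all but the second weakest of the middle one.

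By position, few sites lay near the borders of the rule. By signal this does not hold, as 1969 kept sites (52.5%) lay in the lower 50% of the WT-SOX9 list, and their membership depends on its calling threshold. The smallest overlap of a kept site with the 3 DOX lists was 34 bp, its median over sites was 269 bp, and 5 sites had under 50 bp. Of the 9595 sites missing only with WT-SOX9, 60 had a WT-SOX9 MLL3/4 peak within 100 bp of their border. A WT-SOX9 MYC-tag peak lay within 100 bp of 15 kept sites, and 12 of the 1023 sites set aside overlapped theirs by under 50 bp.

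The strongest kept site, named after its value was seen, was chr2:160619933-160622237, at the start of the lincRNA Gm14221 and 25388 bp from the nearest protein-coding start, that of the DNA topoisomerase gene Top1. Its total signal was 70730 without DOX and 3937, 36359 and 34002 with WT-, dTA- and dHMG-SOX9. It ranked 8 of all no-DOX peaks, and its coverage in skin reached 13 at D0, 23 at W1 and 19 at W2.

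Of the 6 strongest kept sites outside promoters, those within or nearest to Zfp236, Frmd4b, Vgll4, Lipm, Atp11b and Eif4g2, all lay at percentile 99.9 or above by total signal in the no-DOX, dTA-SOX9 and dHMG-SOX9 lists, and between percentiles 57.6 and 99.7 in the shorter WT-SOX9 list. At chr6:114987718-114988965, between genes and 18122 bp from the start of Vgll4, a cofactor that binds TEAD proteins, maximum coverage was 195 without DOX and 42, 97 and 158 with WT-, dTA- and dHMG-SOX9. In an intron of Lipm, a lipase gene of differentiating epidermis, the peak at chr19:34119029-34120506 reached 87 without DOX and 19, 73 and 111 with WT-, dTA- and dHMG-SOX9. The site at chr6:97293515-97295042, in an intron of Frmd4b and shown above with its AP1 word, lay at percentile 57.6 of the WT-SOX9 list, and its maximum coverage was 133, 12, 91 and 98 in the same order. All 6 were found in skin at D0, W1 and W2.

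The 6 strongest at promoters of protein-coding genes were those of Spink5, which encodes a protease inhibitor of the upper epidermis, Ubald2, Oacyl, Rras, a RAS-family GTPase, Syt8, of the synaptotagmin family, and Syne3, which encodes the nuclear envelope protein nesprin-3. The peak at chr7:45017164-45017988, 254 bp from the start of Rras, had a total signal of 24069 without DOX and 7756, 12942 and 19089 with WT-, dTA- and dHMG-SOX9. Rras lay at percentile 99.7 without DOX, at 99.5 and 99.7 with dTA- and dHMG-SOX9, and at rank 106 of the 10543 peaks with WT-SOX9. Syne3 lay at percentile 99.5 without DOX and at 67.0, 97.0 and 98.1 in the DOX lists in the same order, and the site was found in skin at D0 but not at W1 or W2. The peak 1 bp from the start of Spink5 had a maximum of 120 without DOX and 18, 92 and 101 with WT-, dTA- and dHMG-SOX9.

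By position in genes, most kept sites were distal, as were most no-DOX peaks. Of the 3750, 764 (20.4%, 19.1 to 21.7) had the centre of their maximum within 1 kb of an annotated transcription start, 41.9% lay in introns, 35.7% between genes and 2.05% in exons. Among all no-DOX peaks, 19.8% were at starts, 41.9% in introns, 35.3% between genes and 2.92% in exons. The share of kept sites at starts exceeded that of sites missing only with WT-SOX9 (18.5%) by 1.87 points (0.388 to 3.40), and by 5.17 points (3.52 to 6.83) within deciles of total signal. The small unstratified difference was 1.54 points (-0.170 to 3.28) with promoters of 2.5 kb, and -0.0937 points (-2.26 to 2.19) when sites on a MYC-tag peak of any of the 4 cultures were left out. Per chromosome, between 8.78% (X) and 14.8% (19) of no-DOX peaks were kept.

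In skin before induction, most kept sites also carried MLL3/4. Of the 3750 sites, 71.4% (69.9 to 72.8) had a D0 peak, while 44.6% of all no-DOX peaks did and 5.36% of kept sites moved by 10 kb to either side. The share was 70.2% at W1 and 68.9% at W2, against 37.2% and 37.3% of all no-DOX peaks. Sites missing only with WT-SOX9 had a D0 peak in 47.3%, a difference of 24.1 points (22.3 to 25.8), and of 13.7 points (11.7 to 15.7) within deciles of the no-DOX signal. By contrast, the 1023 sites set aside for a WT-SOX9 MYC-tag peak had a D0 peak in 69.5%, and kept sites differed from them by 1.86 points (-1.25 to 5.08), and by 0.846 points within deciles, with an interval that also holds 0. Where a kept site was found in skin, its median percentile by total signal was 83.8 at D0, 78.6 at W1 and 78.8 at W2. Percentiles of other no-DOX peaks found in skin were not computed, so these are not read as a trait of kept sites.

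Most of these sites then stayed through the first 2 weeks. All 3 skin lists held 2216 kept sites (59.1%, 57.5 to 60.7), against 26.6% of all no-DOX peaks and 26.8% of the sites missing only with WT-SOX9. That difference was 32.3 points (30.5 to 34.1), and 20.9 points (18.9 to 22.9) within deciles. Of the 2676 kept sites with a D0 peak, 82.8% (81.3 to 84.2) also had one at W1 and W2. So did 59.6% of all 15160 no-DOX peaks with a D0 peak, and 56.7% of the 4534 such sites missing only with WT-SOX9. Kept sites exceeded the missing sites by 26.1 points (24.1 to 28.2), by 18.2 points (15.8 to 20.5) within deciles of no-DOX signal and by 15.8 points (13.9 to 17.7) within deciles of D0 signal. The sites set aside for a WT-SOX9 MYC-tag peak stayed more often than kept sites. Of those with a D0 peak 92.1% also had one at W1 and W2, a difference of kept sites of -9.31 points (-11.6 to -6.70), and of -9.47 points (-11.8 to -7.09) within deciles of no-DOX signal. All 3 skin lists held 64.0% of them, a difference of -4.93 points (-8.22 to -1.56), and of -5.99 points (-9.17 to -2.82) within deciles. They were in the W2 list in 80.6%, a difference of -11.7 points (-14.5 to -8.81), and of -12.6 points (-15.3 to -9.85) within deciles. At W1 sites with a WT-SOX9 MYC-tag peak were in the W1 list in 81.7% and kept sites in 70.2%, a difference of -11.6 points (-14.3 to -8.69), and of -12.2 points (-14.9 to -9.50) within deciles. In no skin list were 762 kept sites (20.3%), against 46.9% of all no-DOX peaks and 46.0% of the missing sites.

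The difference to the missing sites was found at promoters and at distal sites, those over 1 kb from a start. At promoters 86.8% of kept sites and 72.5% of sites missing only with WT-SOX9 had a D0 peak, a difference of 14.3 points (11.0 to 17.3). Among distal sites the shares were 67.4% and 41.5%, a difference of 25.9 points (23.9 to 27.9). Within deciles these were 8.08 (4.33 to 11.8) and 13.5 points (11.2 to 15.7). Of kept sites with a D0 peak, 82.7% at promoters and 82.9% of distal ones also had peaks at W1 and W2. For all no-DOX peaks with a D0 peak the shares were 53.5% and 62.1%, and for the missing sites 57.1% and 56.5%.

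Although no kept site had a WT-SOX9 MYC-tag peak in culture, many lay on SOX9 peaks in skin. A W1 SOX9 peak met 51.0% of kept sites (49.4 to 52.6), against 24.9% of all no-DOX peaks, 22.9% of sites missing only with WT-SOX9 and 3.31% of kept sites moved by 10 kb. The difference to the missing sites was 28.1 points (26.3 to 29.9), and 22.7 points (20.7 to 24.8) within deciles. The shares were 6.13% at D0, 54.4% at W2, 59.5% at W6 and 32.5% in the grafts at W12, against 2.26%, 28.6%, 32.8% and 15.2% of all no-DOX peaks. The SOX9 lists differed in length, from 792 peaks at D0 to 20579 at W6, so the time points are set side by side and not compared. Sites with a WT-SOX9 MYC-tag peak had SOX9 peaks more often at every time point, so that the difference of kept sites to them was -25.6 points (-28.6 to -22.5) at W1 and -39.4 points (-42.4 to -36.2) at W12, and within deciles -26.1 (-29.0 to -23.1) and -39.6 points (-42.7 to -36.5). Promoter kept sites had a W1 SOX9 peak in 64.8% (61.3 to 68.1) and distal ones in 47.5% (45.7 to 49.3), against 36.9% and 22.0% of all no-DOX peaks and 39.6% and 19.1% of the missing sites, so promoters had the higher share in each set.

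Kept sites with SOX9 in skin held MLL3/4 there more often than those without. Of the 1788 kept sites with a D0 MLL3/4 peak and a W1 SOX9 peak, 1677 (93.8%) had MLL3/4 at W1 and W2, while 539 of the 888 without a W1 SOX9 peak did (60.7%). The difference of 33.1 points (29.7 to 36.5) was 22.7 points (19.4 to 26.0) within deciles of D0 signal. It was 19.5 points (12.4 to 27.0) at promoters and 37.2 points (33.5 to 41.0) at distal sites, and within deciles of D0 signal 9.70 (2.88 to 16.5) and 27.0 points (23.3 to 30.7). Among sites missing only with WT-SOX9 the same difference was 46.6 points (44.1 to 49.1), and 33.3 points (30.5 to 36.1) within deciles of D0 signal. The SOX9 and MLL3/4 lists are from the same kind of sorted cells, and how far general accessibility of a site to CUT&RUN takes part in both was not tested.

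At 263 kept sites (7.01%), 51 of them at promoters, MLL3/4 was in all 3 skin lists and SOX9 in none of the 5 time points. This combination was counted for kept sites only, so whether its share differs from that of other no-DOX peaks was not tested. Of these 263 sites, the strongest at promoters were those of Rab15, Ugt1a7c, a UDP-glucuronosyltransferase gene, Mrps18b, which encodes a mitochondrial ribosomal protein and is shown above, and Aldh3b2, an aldehyde dehydrogenase gene. Away from promoters they were near Pdk4, which encodes a kinase that restrains pyruvate dehydrogenase, and in introns of Zfp532, Lypd6b and Frmd4a. The peak near Pdk4, at chr6:5509573-5510423, had a maximum of 181 without DOX and 11, 224 and 102 with WT-, dTA- and dHMG-SOX9. In skin its maximum was 24 at D0, 12 at W1 and 6 at W2. In an intron of Frmd4a, the peak at chr2:4097325-4098519 lay at percentile 99.3 of the WT-SOX9 list, 99.7 of the no-DOX list and 88.5 of the dTA-SOX9 list. At Aldh3b2 maximum coverage was 63 without DOX and 15, 40 and 68 with WT-, dTA- and dHMG-SOX9.

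The MYC-tag lists of the other 3 cultures also met kept sites. With dTA-SOX9, which keeps the DNA-binding domain, 48.0% (46.4 to 49.6) had a MYC-tag peak, against 22.5% of all no-DOX peaks and 31.2% of sites missing only with WT-SOX9. That difference of 16.9 points (15.0 to 18.7) was 7.36 points (5.30 to 9.41) within deciles. The dTA-SOX9 MYC-tag list held 11341 peaks and the WT-SOX9 list 6671. Without DOX, when the tagged protein is not induced, 11.3% (10.3 to 12.3) of kept sites had a MYC-tag peak, against 4.47% of all no-DOX peaks and 4.69% of the missing sites, a difference of 6.56 points (5.50 to 7.69) and of 3.15 points (2.00 to 4.30) within deciles. With dHMG-SOX9 the share was 14.5%, against 5.80% of all no-DOX peaks and 6.71% of the missing sites. In all, 2158 kept sites (57.5%) had a MYC-tag peak in at least 1 of these 3 cultures, against 27.5% of all no-DOX peaks and 37.3% of the missing sites. In the no-DOX or the dHMG-SOX9 culture 814 (21.7%) had one, against 8.77% and 10.4%. Kept sites are thus sites without a WT-SOX9 MYC-tag peak in the list, not sites without any MYC-tag signal, and 1592 of them had no MYC-tag peak in any of the 4 lists.

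**Figure D3:**
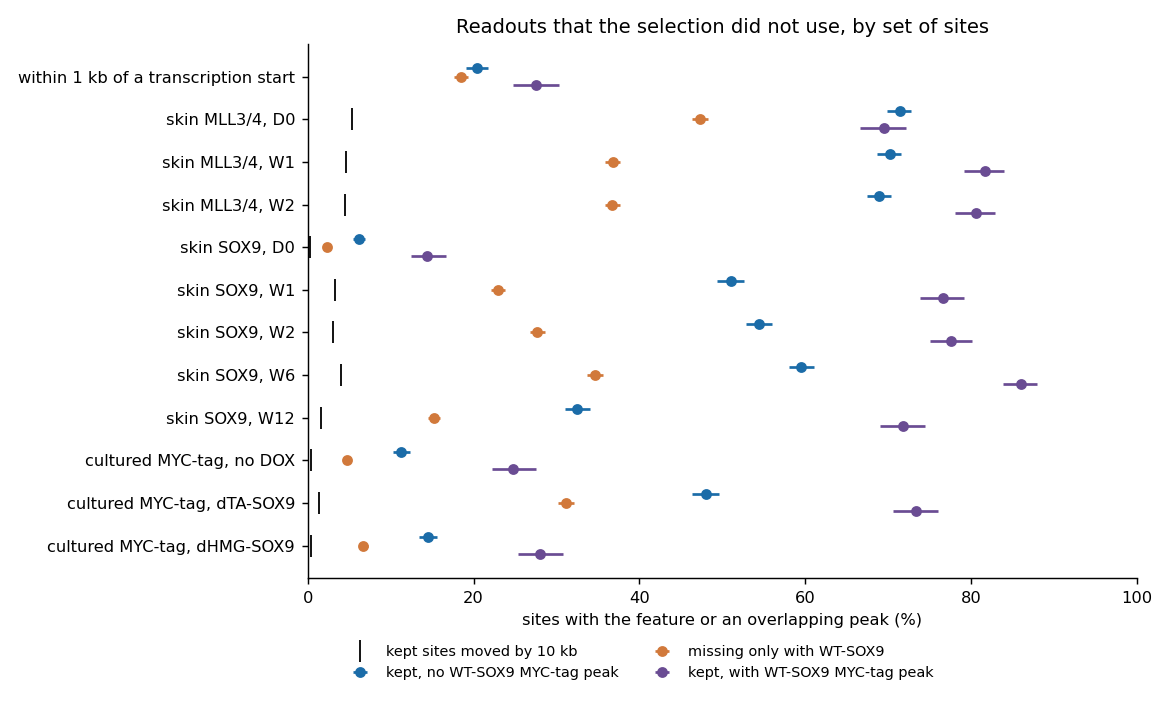
Share of sites (x axis, %) within 1 kb of a transcription start or with an overlapping peak of each list (y axis), for kept sites (blue), sites missing only with WT-SOX9 (orange) and kept sites with a WT-SOX9 MYC-tag peak (purple), with 95% Wilson intervals. Black ticks are kept sites moved by 10 kb. Blue lies above orange in every row, and purple above blue in every row but that of skin MLL3/4 at D0.

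The DNA under the kept sites held AP1 words most often. In the same windows around the maximum, 26.9% (25.5 to 28.3) held the AP1 word, against 2.95% of windows 1 kb to either side and 27.9% of all no-DOX windows. The word rose towards the centre of the maximum, from 0.987% and 0.933% of sites in the 20-bp bins 180 bp to either side to 7.17% in the central bin. Kept sites held it less often than sites missing only with WT-SOX9 (32.4%), a difference of -5.53 points (-7.22 to -3.82), and of -5.84 points (-7.74 to -3.94) within deciles. Among distal sites the shares were 29.8% and 35.7%, a difference of -5.92 points (-7.86 to -3.95), and of -4.79 points (-6.96 to -2.61) within deciles. At promoters they were 15.4% and 17.8%, a difference of -2.36 points (-5.38 to 0.867), and of -6.63 points (-10.2 to -3.08) within deciles.

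GRHL and TEAD words were more frequent in kept sites than in either set they were compared with. The GRHL word was in 6.91% of kept windows (6.14 to 7.76), 3.67% of windows missing only with WT-SOX9, 3.23% of kept windows with a WT-SOX9 MYC-tag peak, 4.05% of all no-DOX windows and 0.640% of windows 1 kb away. Kept sites exceeded the missing sites by 3.24 points (2.37 to 4.17), and by 2.05 points (1.11 to 2.99) within deciles. They exceeded the sites with a MYC-tag peak by 3.57 points (2.21 to 4.92) within deciles. The TEAD word was in 5.95% (5.23 to 6.75), 3.48%, 3.03%, 3.72% and 1.57% of the same windows. Its excess over the missing sites was 2.47 points (1.66 to 3.34), and 2.93 points (2.00 to 3.86) within deciles, and over the sites with a MYC-tag peak 2.92 points (1.49 to 4.11). Among distal sites the differences to the missing sites were 3.59 points (2.60 to 4.67) for GRHL and 2.68 points (1.74 to 3.71) for TEAD, and within deciles 2.47 and 3.51 points, both with intervals that leave out 0. At promoters they were 1.95 (0.396 to 3.82) and 1.81 points (0.466 to 3.47), but within deciles 0.701 (-1.23 to 2.64) and 0.908 points (-0.718 to 2.53), intervals that hold 0. Both words are in the Trp63 window printed above, 4 bases apart.

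SOX words (ACAAAG or ACAATG) were no more frequent in kept windows than in the DNA beside them. They were in 13.4% (12.3 to 14.5) of kept windows, 13.3% of all no-DOX windows and 13.6% of windows 1 kb away, and showed no peak at the centre of the maximum. Sites with a WT-SOX9 MYC-tag peak had them in 23.6%, so the difference of kept sites was -10.2 points (-13.1 to -7.43), and -9.84 points (-12.6 to -7.04) within deciles. Over the missing sites (11.4%) they were higher by 1.97 points (0.737 to 3.26), and by 2.38 points (0.966 to 3.79) within deciles. Of the 18 words compared with the missing sites, AP1, SOX, GRHL and TEAD were the 4 whose intervals left out 0 both with and without deciles, and these intervals are not adjusted for 18 comparisons. The CTCF word (0.160%), the TP63 word (0.133%) and the ZNF143 word (0.160%), each a long pattern, were rare, against 0.318%, 0.191% and 0.165% of all no-DOX windows. For CTCF the difference to the missing sites, -0.0589 points, had an interval of -0.203 to 0.144. Kept windows were over 60% G and C in 5.60% and those missing only with WT-SOX9 in 6.19%, a difference of -0.591 points (-1.44 to 0.319) that turned to 1.65 points (0.679 to 2.61) within deciles. Of all no-DOX windows, 7.65% were over 60% G and C.

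**Figure D4:**
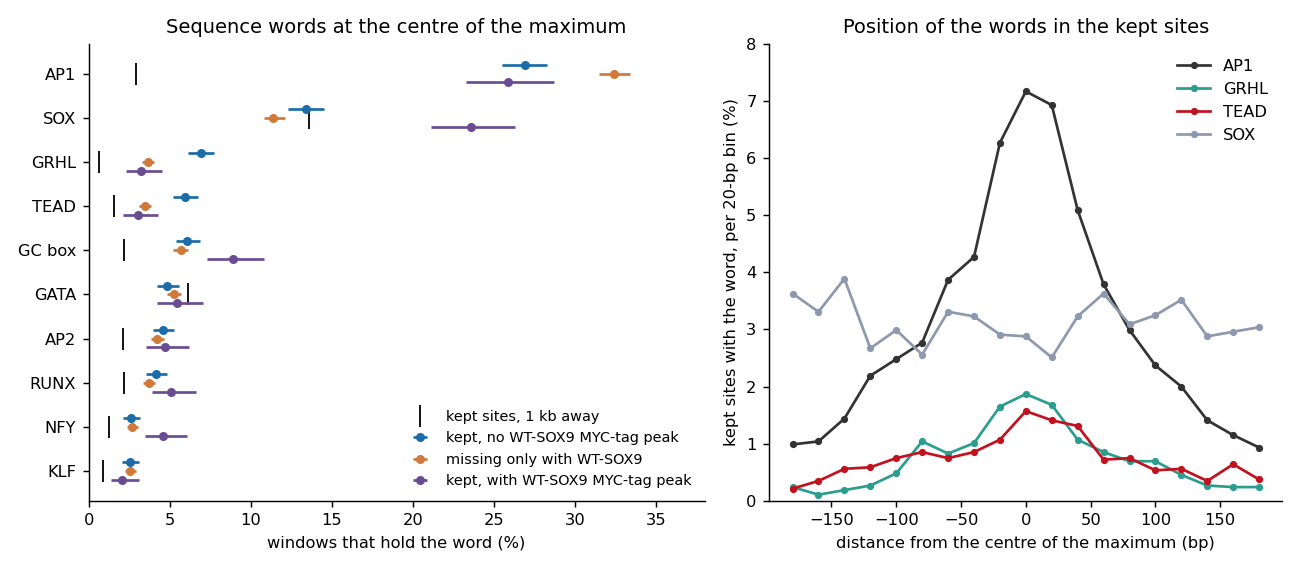
Left, share of windows, 50 bases on either side of the maximum, (x axis, %) that hold each sequence word (y axis) in kept sites (blue), sites missing only with WT-SOX9 (orange) and kept sites with a WT-SOX9 MYC-tag peak (purple), with 95% Wilson intervals; black ticks are windows 1 kb from kept sites. Right, share of the 3750 kept sites with a word in each 20-bp bin around the centre of the maximum; AP1 reaches 7.17%, GRHL 1.87% and TEAD 1.57% at the centre, and SOX shows no rise there.

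Among the 2986 distal kept sites, words went with different readouts. Sites with the AP1 word (890) had a W1 SOX9 peak in skin in 53.6% and those without in 44.9%, a difference of 8.70 points (4.78 to 12.6). They had a dTA-SOX9 MYC-tag peak in 62.1% against 47.5%, higher by 14.7 points (10.8 to 18.4). Sites with the GRHL word (223) went the other way, with a W1 SOX9 peak in 40.8% against 48.0%, a difference of -7.22 points (-13.7 to -0.408), and a dTA-SOX9 MYC-tag peak in 37.7% against 53.0%, a difference of -15.3 points (-21.7 to -8.54). Sites with the TEAD word (195) differed by -12.4 points (-19.1 to -5.21) for SOX9 at W1 and by -9.38 points (-16.4 to -2.12) for the dTA-SOX9 MYC-tag. Without DOX, when the tagged protein is not induced, MYC-tag peaks were also fewer, with a difference of -4.46 points (-6.78 to -0.744) at sites with the GRHL word and of -4.27 points (-6.71 to -0.223) at those with the TEAD word, and of -5.88 (-8.79 to -2.97) and -3.37 points (-6.41 to -0.323) within deciles. The part of this background in the dTA-SOX9 differences was not tested. For MLL3/4 in skin at D0, the difference was -0.959 points (-4.68 to 2.68) for the AP1 word, -1.35 points (-8.45 to 5.17) for TEAD and 6.14 points (-0.275 to 11.8) for GRHL. Sites with the SOX word (440) had a D0 peak in 60.9% against 68.5%, a difference of -7.63 points (-12.6 to -2.82), and of -6.46 points (-11.1 to -1.84) within deciles. Sites with the RUNX word (AACCACA, 133 sites) had a D0 peak less often, in 51.9% against 68.1%, a difference of -16.3 points (-24.9 to -7.76), and sites with the KLF word (GGGTGTGG, 81 sites) more often, in 79.0% against 67.1%, higher by 11.9 points (1.70 to 19.6). For the dTA-SOX9 MYC-tag, the SOX word differed by 9.30 points (4.27 to 14.2) and the RUNX word by 8.70 points (0.00784 to 16.8). The AP2 word (GCCNNNGGC, 129 sites) differed there by -12.1 points (-20.3 to -3.23). These are 8 words and 5 readouts, 40 comparisons in all without adjustment, of which 20 had intervals that left out 0, and 20 did within deciles.

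**Figure D5:**
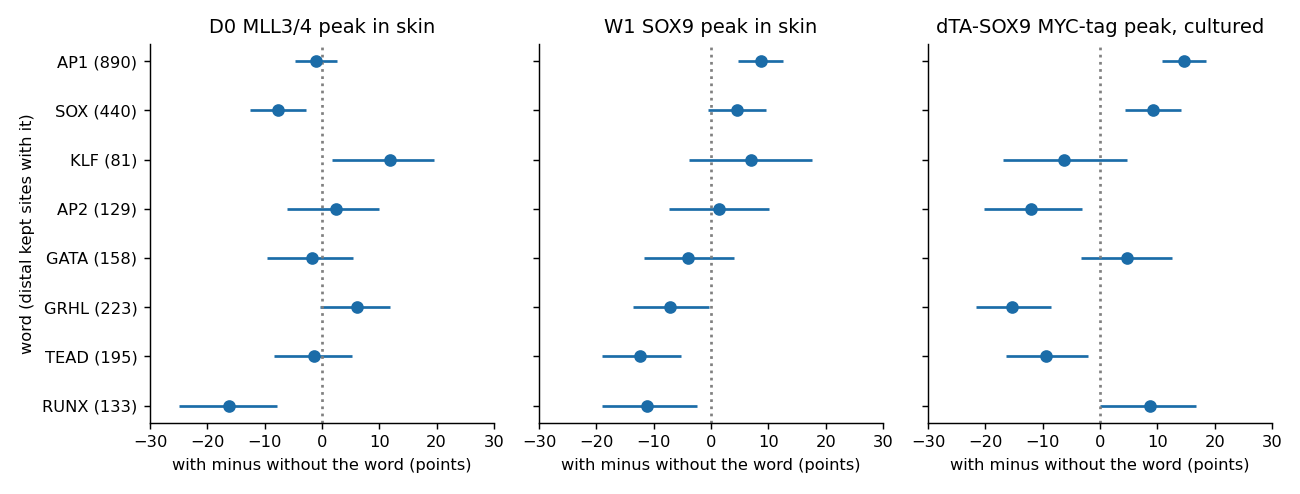
Difference in the share of distal kept sites with a D0 MLL3/4 peak in skin, a W1 SOX9 peak in skin and a dTA-SOX9 MYC-tag peak in culture, between sites with and without each word (x axis, percentage points, 95% Newcombe intervals; y axis, the word and the number of sites with it). AP1 lies to the right of 0 in the middle and right panels, GRHL and TEAD to the left, and RUNX has the lowest value in the left panel.

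At the level of genes, 4598 protein-coding genes had a no-DOX MLL3/4 peak at a promoter, and 552 of them (12%) had a kept site there. Among the lists of genes examined, which were chosen with earlier results of these data known, epidermal fate transcription factors had 4 of 13, the promoters of Elf3, Ehf, Grhl2 and Grhl3. ELF3 and EHF are epithelial ETS factors, and GRHL2 and GRHL3 bind the GRHL word. Elf3 had a maximum coverage of 79 without DOX and 10, 55 and 77 with WT-, dTA- and dHMG-SOX9, and 20, 8 and 6 in skin at D0, W1 and W2. For Ehf the values were 50, 18, 51 and 17 in culture and 35, 28 and 29 in skin. Grhl2 reached 35, 10, 20 and 30 in culture, and Grhl3 19, 11, 12 and 11. Of AP-1 genes, 2 of 9 had a kept promoter site, Jun and Atf3. At Jun, chr4:95052204-95052837, total signal was 4198, 912, 2149 and 3050 in the same order, and SOX9 peaks covered it at all 5 time points, D0 included.

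Housekeeping genes were not over the share of all genes. Cytosolic ribosomal protein genes had kept promoter sites in 4 of 40 (Rpl10, Rpl18, Rps27a and Rps21), splicing factors in 3 of 33 (Hnrnpc, Snrpd2 and Hnrnpul2), replication-dependent histones in 2 of 32 (Hist1h2an and Hist1h2bp, which share 1 site), and the respiratory chain in 1 of 30 (Sdhb). Genes of DNA replication and the cell cycle had none of 17, the proteasome none of 11 and cytosolic tRNA synthetases none of 9. Of basal cell adhesion genes, such as Lama3 and Col17a1, none of 14 had a kept promoter site. Sites missing only with WT-SOX9 were at 7 of these 14, at 5 of 11 proteasome genes, at 4 of 13 epidermal fate factors and at 1213 of the 4598 genes (26.4%). No kept promoter site was found among 7 hair follicle stem cell genes, 3 MLL3/4 complex genes and 5 SWI/SNF genes, and 1 of 5 epidermal differentiation genes had a kept promoter site, Tgm1, the transglutaminase of the cornified envelope. At Tgm1 the total signal was 5268 without DOX and 1404, 1536 and 19741 with WT-, dTA- and dHMG-SOX9. The lists are small and the counts were not tested.

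As a check of cell type, 5 of 10 keratinocyte markers (Krt5, Krt14, Col17a1, Perp and Sfn) had a no-DOX MLL3/4 peak at a promoter, against 0 of 7 fibroblast, 0 of 8 melanocyte and 0 of 6 endothelial markers and 2 of 8 leukocyte markers (Cd68 and Laptm5). Of all 21829 protein-coding genes, 4598 (21.1%) had one. The keratinocyte markers without one were Trp63, Itga6, Itgb4, Cdh1 and Epcam. The strongest promoter peak had a total of 854 at Krt5, where the lowest of the list was 852, and 996 at Perp. It was 3373 at Krt14, 6328 at Col17a1 and 7919 at Sfn, and 6172 at Cd68 and 854 at Laptm5. Sfn, which encodes the epithelial protein stratifin, was the keratinocyte marker with a kept promoter site, with maxima of 15, 7, 12 and 21 in the no-DOX, WT-SOX9, dTA-SOX9 and dHMG-SOX9 lists.

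Around the loci of the study, counted in the gene and 50 kb to each side, Trp63, the master regulator of epidermal fate, held 4 kept sites of 12 no-DOX peaks. The strongest of the 4, in an intron at chr16:25779981-25780378, had a total signal of 7173 without DOX and 3700, 4717 and 4722 with WT-, dTA- and dHMG-SOX9, and a skin maximum of 47 at D0, 23 at W1 and 45 at W2. SOX9 peaks met it in skin from W1 to W12. Gata3, Runx1, Krt5 and Ctnnb1 held 1 kept site each, of 3, 10, 11 and 4 no-DOX peaks, and Vim and Sox9 none, of 4 and 3. Over the whole no-DOX list 11.0% of peaks were kept, and the small counts per locus were not tested against it. The site near Gata3, a transcription factor of epidermis and hair follicle, lay 39006 bp from a protein-coding start, had no SOX9 or MYC-tag peak in any list, and was found at D0, W1 and W2. The Krt5 site, 1728 bp from its start, had a maximum of 21 without DOX and 7, 16 and 31 with WT-, dTA- and dHMG-SOX9.

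The genes with the most kept sites, in the gene and 10 kb to each side, were long ones: Gm20388 with 11 of 130 no-DOX peaks (8.46%), Nedd4l, a ubiquitin ligase gene, with 10 of 37 (27.0%), Fgfr2, a growth factor receptor gene, with 9 of 75 (12%), and Sgms1, a sphingomyelin synthase gene, with 8 of 25 (32.0%). Of all no-DOX peaks 11.0% were kept, so the first and the third are near or below the share of the whole list. Gm20388 and Fgfr2 are annotated across 4435 kb and 2961 kb in the annotation used, so their counts take in other genes. In Sgms1, on chromosome 19, all 8 sites were found in skin at D0, W1 and W2. They lay between percentiles 77.7 and 98.3 of the no-DOX list and between 7.58 and 94.4 of the WT-SOX9 list.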

How the data were processed

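CUT&RUN peak lists were analysed as deposited, 18 in all. Per the methods, the authors used Skewer for trimming and Bowtie2 2.2.9 for alignment to mm10, removed duplicates with Picard, kept fragments of up to 120 bp with SAMtools 1.3.1, made coverage with deepTools 3.1.2 and called peaks with SEACR (stringent, 0.01). The methods describe RPKM coverage as the input of peak calling, and the names of the skin MLL3/4 lists say so too, but every deposited maximum signal in the pooled MLL3/4 lists is a whole number. It is read here as unscaled coverage, an inference from the values, and the total is its sum over the bases of a peak. In the SOX9, MYC-tag and replicate 1 lists the authors gave RPKM coverage, and SOX9 and MYC-tag peaks were kept above 1800. Read totals are not part of the lists, so the depth is unknown and signal was ranked within lists only. Both WT-SOX9 DOX MLL3/4 samples are described as replicate 2 in the labels, though their titles number them 1 and 2. The JUN, ARID1a and BRG1 samples were not analysed here.

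Overlaps (at least 1 bp), shares with 95% Wilson intervals, and differences with 95% Newcombe intervals were computed with Python 3.11.15, pandas 2.3.3, numpy 2.4.6 and scipy 1.17.1, and checked on simulated data. Differences within deciles carry Mantel-Haenszel weights. Starts and genes are from GENCODE vM21, DNA from GRCm38.p6. Sites named are the 6 kept sites of highest no-DOX signal at promoters of protein-coding genes and the 6 outside promoters of any gene. Also named are the 4 strongest of each kind in all 3 skin lists without SOX9, up to 4 list genes with a kept promoter site, 7 loci of the study, and the 4 genes with most kept sites. Any other is named as chosen after its values were seen. Members, gene lists and words were chosen with earlier results of these data known.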

Additional observations from a re-analysis of the deposited data

How the results depend on the processing

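No paired analysis was possible because the 2 replicates of each group are given as 1 pooled list. Over 13 alternatives and 10 results, 83 of 98 values kept their direction and whether their interval left out 0 (counts, within 1.5 times). Another 4, of the CTCF word or of windows over 60% G and C, turned in sign with intervals that hold 0 before and after. The number of kept sites was 1482 with peaks above the median signal of each list and 1592 when a MYC-tag peak in any of the 4 lists set a site aside, fewer by construction. The difference in promoter share was 1.44 points in the first case, -0.0937 in the second and 1.54 with promoters of 2.5 kb, each with an interval that holds 0. The difference in windows over 60% G and C was 2.08 points with lists of equal size, 1.65 within deciles, -0.938 with no site set aside and -5.09 at promoters (2.91 there within deciles, with an interval that holds 0). That of the CTCF word was -0.180 without WT-SOX9 no-DOX replicate 2, and that of the AP1 word -2.36 at promoters (-6.63 there within deciles). The cause of these shifts was not tested. The share with a no-DOX MYC-tag peak has no value once such sites are set aside. Deciles of D0 signal were chosen after seeing the data.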
